A study of Mus musculus with 8 samples.

Results

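MHC class II molecules show peptides from engulfed protein to CD4+ T cells, and dendritic cells are the cells best known for doing so. Their genes were followed in mammary tumours of mice with normal or long polyglutamine huntingtin. The 8 genes were H2-Aa, H2-Ab1 and H2-Eb1 (class II chains), H2-DMa and Cd74 (peptide loading), Ciita (the class II transcriptional coactivator), and Itgax and Flt3 (an integrin and a cytokine receptor of dendritic cells). A gene was taken where the platform annotation gives it a row of its own, with the highest mean signal if there were several, and 5 of the 8 had one, among 14860 genes with such a row. The rows that hold H2-Eb1, Ciita and Itgax also carry another gene's symbol, so their values are given as those of a shared row and are not counted.

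RNA was measured on Affymetrix Mouse Exon 1.0 ST arrays, with 1 array for each of 4 MMTV-PyVT/HdhQ7/Q7 tumours and 4 MMTV-PyVT/HdhQ111/Q111 tumours, called HdhQ7/Q7 and HdhQ111/Q111 tumours below. All of these mice carry a transgene for the polyoma virus middle T oncoprotein under the MMTV promoter, which acts mainly in mammary epithelium. Both copies of their Hdh gene encode a huntingtin with 7 glutamines, which the study calls wild-type, or with 111. The strain is labelled FVB/CD1 in both genotypes, the tumours were untreated and snap-frozen, and the age of the mice is not in the labels. The study's figure legend says that the array tumours were taken a fixed time after detection. Tumours came earlier in the HdhQ111/Q111 mice of the study, so that age and genotype cannot be told apart. The sources do not say that the tumours came from different mice, so p-values measure the spread between tumours. Whole tumours were used, and fewer cells of a type cannot be told apart from less RNA per cell.

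Values are log2 signals as deposited, in which a difference of 1 is a doubling, and a level of one row is not set against that of another because probes differ. Across the 23332 rows, array medians lay between 7.58 and 7.74, and pairs of arrays correlated with r between 0.984 and 0.990. HdhQ7/Q7 replicates 1 and 3 stood apart from the other 6 tumours in a few rows of the H2 region described below, and results that rest on them are also given without them. The study's thresholds were a fold change of at least 1.5 and an unadjusted p of at most 0.05, here with limma's p. A gene is called past them in that sense, and the p-values adjusted over all rows (Benjamini-Hochberg) are given beside. With 4 tumours against 4, an exact permutation test over the 70 labellings gives no p below 0.0286. Changes past the adjusted threshold of 0.05 were found in 3 rows of the table, none of them a gene named here or on a list below.

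A class II molecule is a pair of an alpha and a beta chain, H2-Aa with H2-Ab1 and H2-Ea with H2-Eb1 in mice. Cd74, the invariant chain, holds the pair together on its way to the endosome, where H2-DM (made of H2-DMa and H2-DMb) helps a peptide take the place of the Cd74 remnant. Ciita binds no DNA itself and is brought to class II promoters by RFX, CREB and NF-Y, which sit on neighbouring X and Y boxes. Dendritic cells, B cells and macrophages make class II, and interferon gamma induces it in many other cells through Ciita.

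The promoters are shown because these boxes are what the class II genes share. RefSeq promoter sequences (GRCm38.p6, strain C57BL/6J) were at hand for H2-Aa, H2-Eb1, H2-DMa, Itgax and Flt3, so for 5 of the 8 genes. The 150 bases before the start site are printed 5′ to 3′ along the gene, with GCAAC (letters of the X box) and ATTGG (the Y box core, the reverse complement of CCAAT) in capitals. The printed bases lie at chr17:34287824-34287973 on the minus strand for H2-Aa and at chr17:34305717-34305866 on the plus strand for H2-Eb1.
H2-Aa: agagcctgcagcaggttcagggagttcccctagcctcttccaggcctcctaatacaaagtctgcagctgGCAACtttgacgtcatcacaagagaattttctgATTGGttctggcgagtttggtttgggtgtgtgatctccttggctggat
H2-Eb1: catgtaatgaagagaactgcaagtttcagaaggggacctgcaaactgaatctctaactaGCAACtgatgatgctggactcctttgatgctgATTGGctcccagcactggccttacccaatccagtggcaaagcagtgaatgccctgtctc
In H2-Aa the ATTGG starts 33 bases after the GCAAC, and in H2-Eb1 32 bases after. This pair, with the first letters 25 to 40 bases apart and either strand searched in the 250 bases before the start, is in 221 of 32851 promoters of the table (0.673%). GCAAC alone is in 29.9% and ATTGG alone in 33.8%. The pair is also in the promoters of H2-Oa (distance 33), H2-Ob (30) and H2-Eb2 (32). It was not found in this window at either start site of H2-DMa, nor in H2-DMb1, H2-DMb2, Itgax or Flt3. Letters and spacing were chosen after these sequences had been read, and a match is a description of letters and not of binding.

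H2-Ab1, the beta chain of the A molecule, was the only gene of the 5 past the study's thresholds. Its log2 signal was 9.95, 10.37, 9.23 and 10.58 in HdhQ7/Q7 replicates 1 to 4, and 10.88, 10.70, 10.86 and 10.38 in HdhQ111/Q111 replicates 1 to 4. The genotypes overlapped, since HdhQ111/Q111 replicate 4 lay below HdhQ7/Q7 replicate 4, and the lowest value of all was that of HdhQ7/Q7 replicate 3. The means were 10.71 ± 0.23 (SD, n = 4) in HdhQ111/Q111 and 10.03 ± 0.60 (SD, n = 4) in HdhQ7/Q7 tumours, a 1.59-fold difference (0.67 on the log2 scale, standard error 0.27, 95% interval 0.05 to 1.30). Limma gave p = 0.0384 and adjusted p = 0.621, and the exact permutation test p = 0.0571. The call was lost without HdhQ7/Q7 replicate 1 or 3 or without HdhQ111/Q111 replicate 1, 2 or 3, and the difference ran from 0.40 without HdhQ7/Q7 replicate 3 to 0.85 without HdhQ7/Q7 replicate 4. Without both HdhQ7/Q7 replicates 1 and 3 it was 0.23 and the call was lost.

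H2-DMa, the alpha chain of the peptide exchanger, differed by less, but without overlap. Its log2 signal was 8.00, 7.67, 7.73 and 7.97 in the HdhQ7/Q7 tumours and 8.37, 8.24, 8.20 and 8.20 in the HdhQ111/Q111 tumours. Every HdhQ111/Q111 tumour lay above every HdhQ7/Q7 tumour. The means of 8.26 ± 0.08 and 7.84 ± 0.17 (SD, n = 4 each) differed 1.33-fold (0.41 on the log2 scale, standard error 0.09, 95% interval 0.20 to 0.63), which is under the fold threshold. Limma's p was 0.00213, the adjusted p 0.392, and the exact permutation p 0.0286, the smallest possible. With each tumour left out in turn the difference lay between 0.35 and 0.46.

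H2-Aa and Cd74 did not differ detectably. H2-Aa, the alpha partner of H2-Ab1, had a log2 signal of 11.58, 11.40, 10.98 and 11.52 in the HdhQ7/Q7 tumours and of 11.35, 11.15, 11.21 and 11.33 in the HdhQ111/Q111 tumours. All HdhQ111/Q111 values fell inside the HdhQ7/Q7 range, and the difference was -0.11 (standard error 0.13, 95% interval -0.42 to 0.19, adjusted p = 0.848). Without HdhQ7/Q7 replicate 3, the lowest tumour, it was -0.24, with an unadjusted limma p of at most 0.05. Cd74 measured 11.78, 11.48, 11.25 and 11.74 against 11.72, 11.67, 11.61 and 11.53 in the same order. Its difference was 0.07 (standard error 0.12, 95% interval -0.21 to 0.35, adjusted p = 0.903), it turned to -0.04 without HdhQ7/Q7 replicate 3, and again the HdhQ7/Q7 tumours spanned the others. The difference between H2-Aa and H2-Ab1 in their response was not tested.

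Flt3, the receptor whose ligand sustains dendritic cell development, had a dim row and no detectable difference. Its log2 signal was 5.34, 5.24, 5.33 and 5.24 in HdhQ7/Q7 and 5.41, 5.25, 5.34 and 5.30 in HdhQ111/Q111 tumours. The row mean is below the lower quartile of all row means (5.71), and the whole range over the 8 tumours was 0.17. The difference was 0.04 (standard error 0.06, 95% interval -0.11 to 0.18, adjusted p = 0.898). A dim row gives little room to see a difference.

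**Figure D1:**
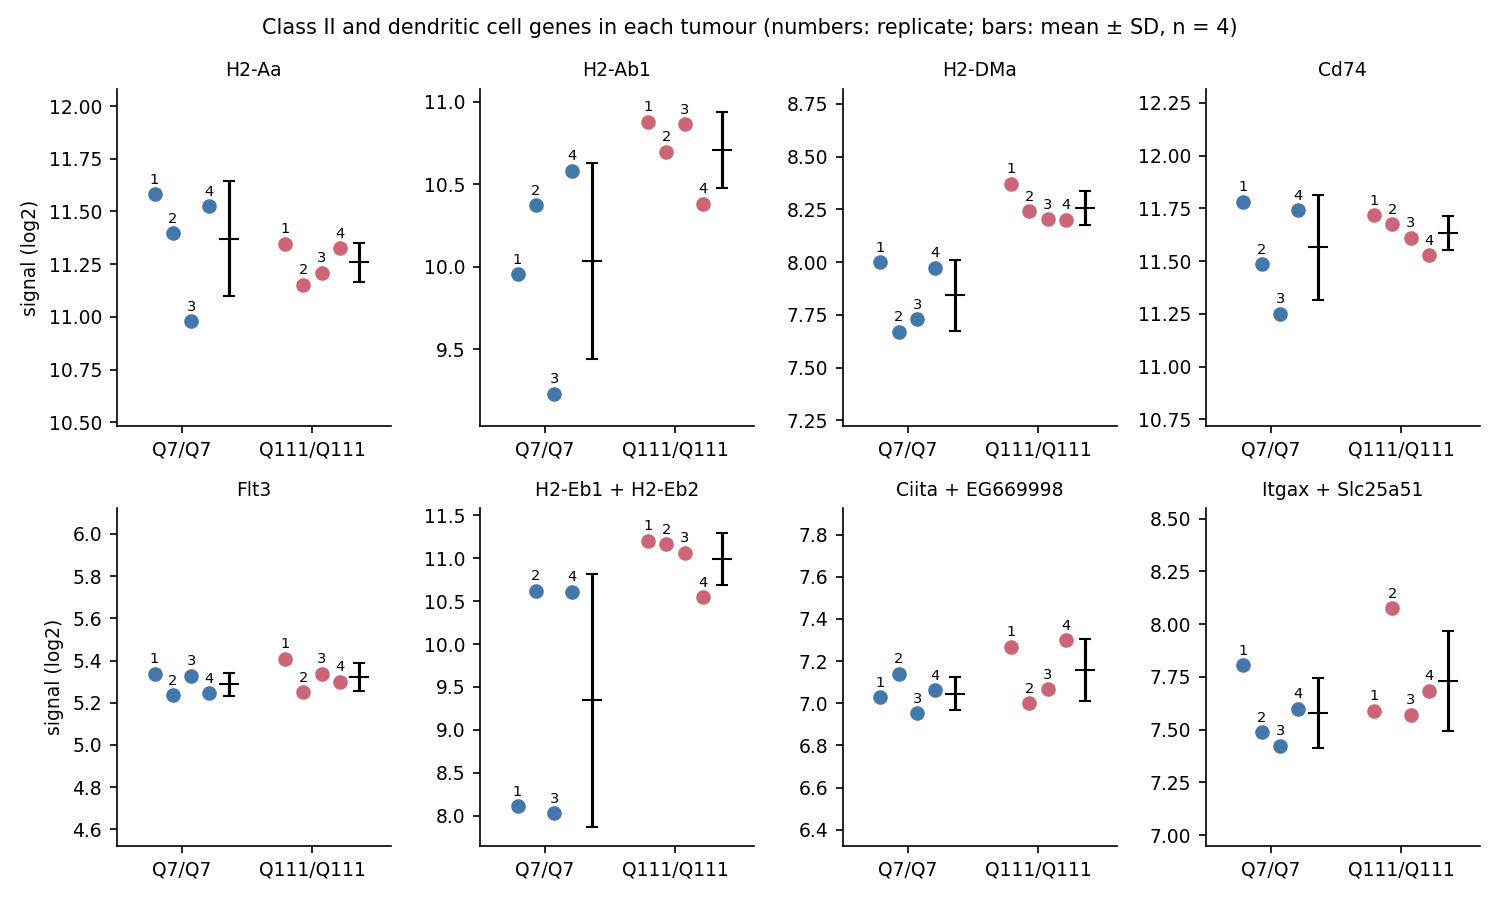
Log2 signal (y axis, a separate scale for each panel) of the 5 genes with a row of their own and of the 3 shared rows in each of the 4 HdhQ7/Q7 and 4 HdhQ111/Q111 tumours, with numbers giving the replicate and bars the mean ± SD (n = 4). H2-DMa is the panel of the 5 genes in which the genotypes do not overlap, and HdhQ7/Q7 replicates 1 and 3 sit at 8.11 and 8.03 in the H2-Eb1 + H2-Eb2 panel, below all the others.

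The 3 shared rows cannot be credited to either of their genes. The row of H2-Eb1 and H2-Eb2, beta chains of the E molecule, read 8.11, 10.62, 8.03 and 10.61 in HdhQ7/Q7 and 11.20, 11.17, 11.06 and 10.55 in HdhQ111/Q111 tumours. HdhQ7/Q7 replicates 1 and 3 were far below the rest, and the other 6 tumours lay between 10.55 and 11.20. The difference of 1.65 (3.14-fold, standard error 0.63, p = 0.0299, adjusted p = 0.605 from limma, exact permutation p = 0.0857) became 0.38 without those tumours. The row of Ciita and EG669998 read 7.03, 7.14, 6.95 and 7.06 against 7.27, 7.00, 7.07 and 7.30, a difference of 0.11 (95% interval -0.09 to 0.31). That of Itgax and Slc25a51 read 7.81, 7.49, 7.42 and 7.60 against 7.59, 8.08, 7.57 and 7.68, a difference of 0.15 (95% interval -0.15 to 0.45). In both of these rows the genotypes overlapped.

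Over the 5 genes, 4 were higher and 1 lower in HdhQ111/Q111 tumours, with a median difference of 0.07 on the log2 scale against 0.02 over all rows. With arrays centred on their medians, Cd74 and Flt3 turned to -0.0003 and -0.03. The median of the 5 was then -0.0003, against -0.047 over all rows in that setting. List medians given below with arrays centred stand beside that -0.047. Of the 5, 1 was past the study's thresholds, where 1.36% of all rows were (1.02% higher and 0.339% lower in HdhQ111/Q111). An unadjusted p of at most 0.05 was reached by 2 of the 5 and by 7.88% of all rows, and 1 of the 5 had no overlap between the genotypes, as did 4.43% of all rows. An adjusted p under 0.05 was reached by 0 of the 5 and by 0.0129% of all rows, the members' adjusted p-values running from 0.392 to 0.903. The methods' t-test placed 0 of the 5 past the thresholds, 1 (H2-DMa) at an unadjusted p of at most 0.05 and 0 at an adjusted p under 0.05.

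The class II list was then widened to the whole set of chains and loading genes. Of its 12 symbols, some of them older names, 6 had a row of their own, of which 2 were past the thresholds, both higher (H2-Ab1 and H2-Ea), with a median difference of 0.24. H2-Ea, the alpha chain of the E molecule, read 6.66, 11.58, 7.09 and 11.55 in HdhQ7/Q7 and 12.37, 12.20, 12.17 and 11.51 in HdhQ111/Q111 tumours. Again HdhQ7/Q7 replicates 1 and 3 were the low ones, and HdhQ7/Q7 replicates 2 and 4 lay beside HdhQ111/Q111 replicate 4. The 7.18-fold difference (2.84 on the log2 scale, standard error 1.15, 95% interval 0.21 to 5.48, p = 0.0374, adjusted p = 0.620 from limma, exact permutation p = 0.0857) was 0.50 without those tumours. The call was also lost without any single tumour other than HdhQ7/Q7 replicate 2 or 4. With the methods' t-test 0 of the 6 genes were past the thresholds. H2-Oa, a chain of the H2-DM inhibitor, was at 0.00 (95% interval -0.23 to 0.24), and the row shared by H2-DMb2 and H2-DMb1, the beta chains that pair with H2-DMa, was at -0.13 (95% interval -0.41 to 0.15).

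A search of the whole table, made after H2-Ea had been seen, asked which rows had HdhQ7/Q7 replicates 1 and 3 at least 1 log2 unit below all other 6 tumours. There were 4 such rows of 23332, and all 4 hold genes of chromosome 17. The widest gap, 5.05, was in the row of the class I-like genes H2-T22, H2-T10, H2-T9 and H2-T17, at 4.01, 9.23, 4.10 and 9.15 in HdhQ7/Q7 and 10.24, 10.80, 10.71 and 9.15 in HdhQ111/Q111 tumours. The gap was 4.42 for H2-Ea, 3.03 for D17H6S56E-5 and 2.44 for the H2-Eb1 and H2-Eb2 row. RefSeq for GRCm38.p6 places H2-Ab1, H2-Aa, H2-Eb1, H2-Eb2 and H2-Ea next to each other on chromosome 17, in that order, and D17H6S56E-5 and H2-T22 farther along. Another row of H2-T10 and H2-T22 ran the opposite way, at 12.21, 10.91, 11.52 and 10.98 in HdhQ7/Q7 and 8.36, 8.17, 7.97 and 10.43 in HdhQ111/Q111 tumours. HdhQ111/Q111 replicate 4 thus sat nearer to HdhQ7/Q7 replicates 2 and 4 than to its own group in both H2-T rows. In the opposite direction, 3 rows had the same tumours at least 1 log2 unit above the others, among them Rsad2, an interferon-induced antiviral gene (10.32, 8.90, 10.40 and 8.54 against 8.40, 8.43, 9.32 and 8.08).

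The class II region differs in sequence and in gene content between mouse strains, and mice of several H2 haplotypes make no E alpha chain. RefSeq lists H2-Ea as a transcribed pseudogene in the reference strain. The H2 haplotype of each mouse is not in the labels, which give FVB/CD1 for all 8, and its part in these values was not tested. A lower signal from less RNA cannot be told apart from one where the probes match the transcript less well.

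**Figure D2:**
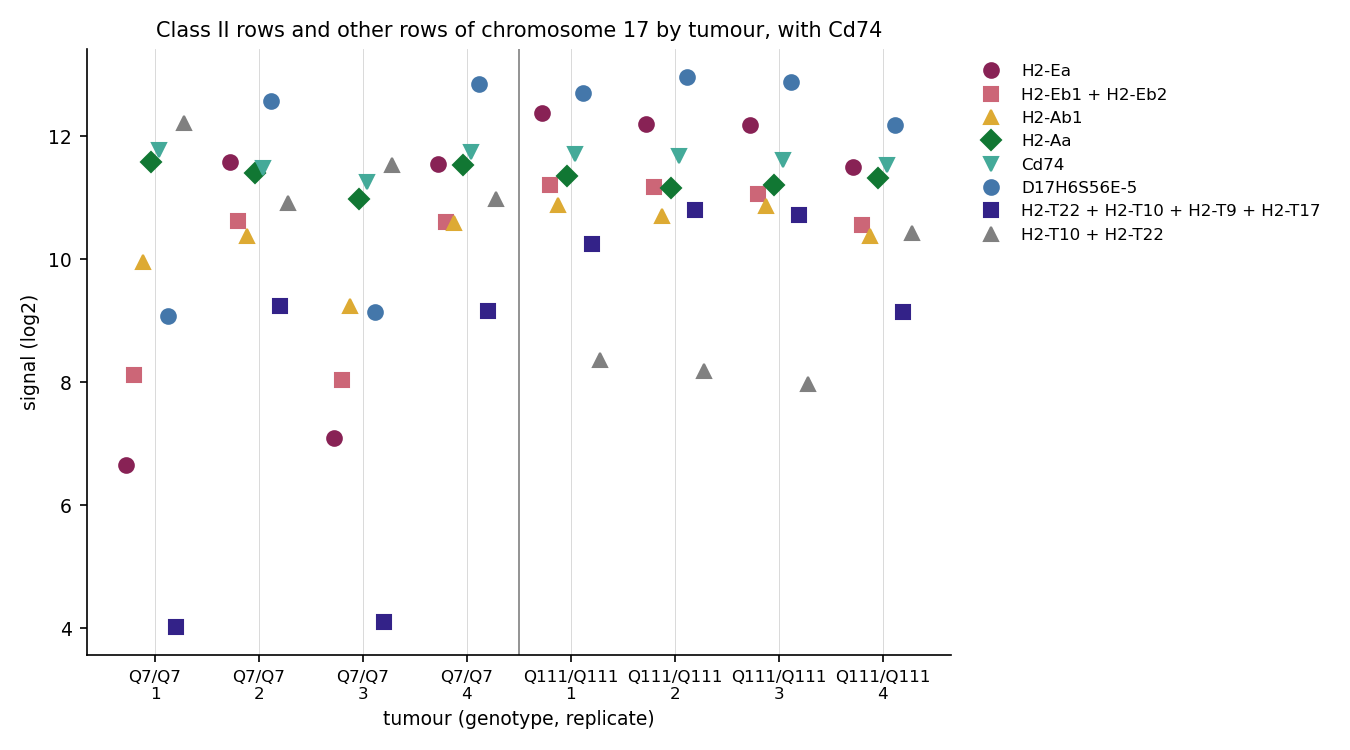
Log2 signal (y axis) of class II rows, of other rows of chromosome 17 and of Cd74 in each HdhQ7/Q7 and HdhQ111/Q111 tumour (x axis), 1 point per tumour and row, spread sideways within a tumour. H2-Ea and the H2-Eb1 + H2-Eb2 row drop in HdhQ7/Q7 replicates 1 and 3 (H2-Ea to 6.66 and 7.09), while H2-Aa and Cd74 stay between 10.98 and 11.78 in all 8 tumours, and heights are not to be compared between rows.

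Of 9 listed factors that act on class II promoters 8 had a row of their own, and 0 were past the thresholds (median difference 0.07, and 0.00 with arrays centred). Rfx5, the DNA-binding chain of RFX, was at 0.09 (95% interval -0.13 to 0.30). Nfyb, a chain of NF-Y, was at 0.26 with no overlap (8.12 to 8.43 in HdhQ7/Q7 against 8.49 to 8.69 in HdhQ111/Q111 tumours, adjusted p = 0.589 from limma, exact permutation p = 0.0286). Peptide supply gave 0 of 8 measured genes past the thresholds, with a median of -0.01. Ctss, the protease that trims the invariant chain, was at -0.04, Lgmn, an endosomal protease, at 0.12 and Ifi30, a lysosomal thiol reductase, at 0.15.

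Signals that induce class II gave 0 of 10 genes past the thresholds, with a median of -0.11. Ifng, the chief inducer, was at -0.11 (95% interval -0.28 to 0.06). Jak1 and Jak2, kinases of its receptor, were at -0.22 and -0.11. Among listed genes of the class II stretch of chromosome 17, 9 of 17 symbols had a row of their own, of which 3 were higher and 6 lower, and 1 (H2-Ab1) was past the thresholds. Psmb8, a subunit of the immunoproteasome, was at -0.57 (1.48-fold lower, adjusted p = 0.599 from limma, exact permutation p = 0.0571) and Tap2, a peptide transporter for class I, at -0.31.

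Genes common to conventional dendritic cells gave 0 of 7 past the thresholds, with a median of 0.20 (0.13 with arrays centred on their medians). Zbtb46, the transcription factor that sets these cells apart from macrophages, read 7.04, 6.96, 6.97 and 6.95 in HdhQ7/Q7 and 6.99, 6.59, 7.31 and 6.93 in HdhQ111/Q111 tumours, a difference of -0.02 (95% interval -0.33 to 0.29). The largest difference of the list was that of Dpp4, a surface peptidase that other cells also carry, at 8.88, 8.42, 8.69 and 8.26 against 9.35, 8.93, 9.31 and 8.94. Its groups did not overlap, and the 1.49-fold difference (0.57, adjusted p = 0.511 from limma, exact permutation p = 0.0286) was just under the fold threshold. Spi1, a transcription factor of myeloid cells, also had no overlap, at 8.62 to 8.78 against 8.83 to 9.15 (0.20, adjusted p = 0.634 from limma, exact permutation p = 0.0286).

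For type 1 conventional dendritic cells, which present antigen to CD8+ T cells, 2 of 12 measured genes were past the thresholds, both higher, with a median of 0.11. They were Ifi205, an interferon-inducible gene, and Cd36, a lipid receptor that adipocytes and endothelium also carry. Ifi205 read 6.83, 6.53, 7.05 and 6.46 in HdhQ7/Q7 and 8.70, 7.29, 7.56 and 8.52 in HdhQ111/Q111 tumours, a 2.46-fold difference with no overlap (adjusted p = 0.427 from limma, exact permutation p = 0.0286) that stayed past the thresholds with each tumour left out. Cd36 read 5.54, 6.83, 6.36 and 4.57 against 9.86, 5.42, 8.43 and 7.77, a 4.14-fold difference (adjusted p = 0.630 from limma) with HdhQ111/Q111 replicate 2 inside the HdhQ7/Q7 range. Its call was lost without HdhQ7/Q7 replicate 1, 3 or 4 or without HdhQ111/Q111 replicate 1, 3 or 4, with the log2 difference between 1.39 and 2.87, and with the methods' t-test, which left 1 of the 12 genes (Ifi205) past the thresholds. Of the 12 genes 7 were higher and 5 lower. Xcr1, the chemokine receptor, was at 0.06 (95% interval -0.25 to 0.37), and Clec9a, which senses dead cells, at -0.05 (95% interval -0.24 to 0.14) in one of the dimmest rows, at 3.91 to 4.24 in all 8 tumours. Irf8, the factor that directs their development, was at 0.17 (95% interval -0.02 to 0.35). Itgae, the integrin CD103, was at -0.40 (95% interval -0.79 to 0.0005), Tlr3, a sensor of double-stranded RNA, at -0.22, and a row shared by Batf3, another factor of their development, and Rn28s1 at -0.20 (95% interval -0.40 to -0.0032).

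For type 2 conventional dendritic cells, which present to CD4+ T cells, 2 of 9 measured genes were past the thresholds, both higher, with a median of 0.05 (-0.01 with arrays centred). These were the lectin genes Cd209d (6.12, 6.29, 6.83 and 6.28 against 8.04, 6.03, 7.84 and 7.97) and Mgl2 (5.63, 5.62, 5.79 and 5.58 against 6.97, 5.41, 6.49 and 7.21). Cd209a, the DC-SIGN lectin that marks these cells, read 6.64, 6.79, 7.12 and 6.80 against 8.49, 6.63, 7.50 and 7.84 (0.78, standard error 0.34, exact permutation p = 0.143). In each of the 3 lectins HdhQ111/Q111 replicates 1, 3 and 4 were above every HdhQ7/Q7 tumour and HdhQ111/Q111 replicate 2 was the lowest of all 8. Cd209d differed 2.13-fold (log2 standard error 0.43, limma adjusted p = 0.617) and Mgl2 1.82-fold (log2 standard error 0.34, limma adjusted p = 0.617). Without HdhQ111/Q111 replicate 2 their log2 differences were 1.57 and 1.23, and both calls were lost without HdhQ111/Q111 replicate 1, 3 or 4. That of Cd209d was also lost without HdhQ7/Q7 replicate 1, 2 or 4, and that of Mgl2 without any HdhQ7/Q7 tumour. With the methods' t-test 0 of the 9 genes were past the thresholds. By direction, 7 of the 9 were higher and 2 lower. Apart from the lectins, Irf4 was at 0.05, Sirpa at 0.04, Klf4 at 0.03, Tnip3 at 0.18 and Clec4a4 at -0.03. The 9 include Epcam (-0.06), which also marks the tumour epithelium.

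The macrophage gene Mrc1 and fat genes were high in the same tumours. Mrc1, the mannose receptor of macrophages, read 7.60, 7.61, 7.95 and 7.20 in HdhQ7/Q7 and 8.69, 7.55, 8.65 and 8.66 in HdhQ111/Q111 tumours, and it was the 1 of 14 macrophage genes past the thresholds (median of the list 0.20), a call lost without HdhQ7/Q7 replicate 4 or without HdhQ111/Q111 replicate 1, 3 or 4 but kept with the methods' t-test. Of the 14 macrophage genes, 11 were higher and 3 lower. Cd163 showed the same split, at 6.18 to 6.37 in HdhQ7/Q7 tumours and 7.14, 6.27, 6.46 and 7.01 in HdhQ111/Q111 replicates 1 to 4. Csf1r did not, at 9.34 to 9.60 in HdhQ7/Q7 and 9.49 to 9.86 in HdhQ111/Q111 tumours with replicate 4 the lowest of its group. Nor did C1qa, at 9.45 to 9.84 and 9.65 to 10.01. Adgre1, which encodes F4/80, had no overlap (8.25 to 8.39 against 8.48 to 8.81, difference 0.41, adjusted p = 0.370 from limma, exact permutation p = 0.0286). Adipoq, which encodes the fat hormone adiponectin, read 6.51, 7.29, 6.26 and 6.16 against 10.57, 6.25, 8.95 and 8.68. Of the 7 adipocyte genes measured, 3 (Adipoq, Cidec and Lpl) were past the thresholds, all higher, and 0 with the methods' t-test. Each of the 3 calls was lost without HdhQ7/Q7 replicate 1, 3 or 4 or HdhQ111/Q111 replicate 1, 3 or 4, and the log2 difference of Adipoq ran from 1.40 to 2.84. The mean level of the 7 genes ran from 6.64 to 10.12 in HdhQ111/Q111 tumours and from 6.31 to 7.32 in HdhQ7/Q7 tumours. HdhQ111/Q111 replicate 2 had the lowest adipocyte mean of its group, as it had the lowest Cd209a, Cd209d, Mgl2, Cd36 and Ifi205. The part of fat tissue and of macrophages in the values of the lectins, Cd36 and Ifi205 was not tested.

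**Figure D3:**
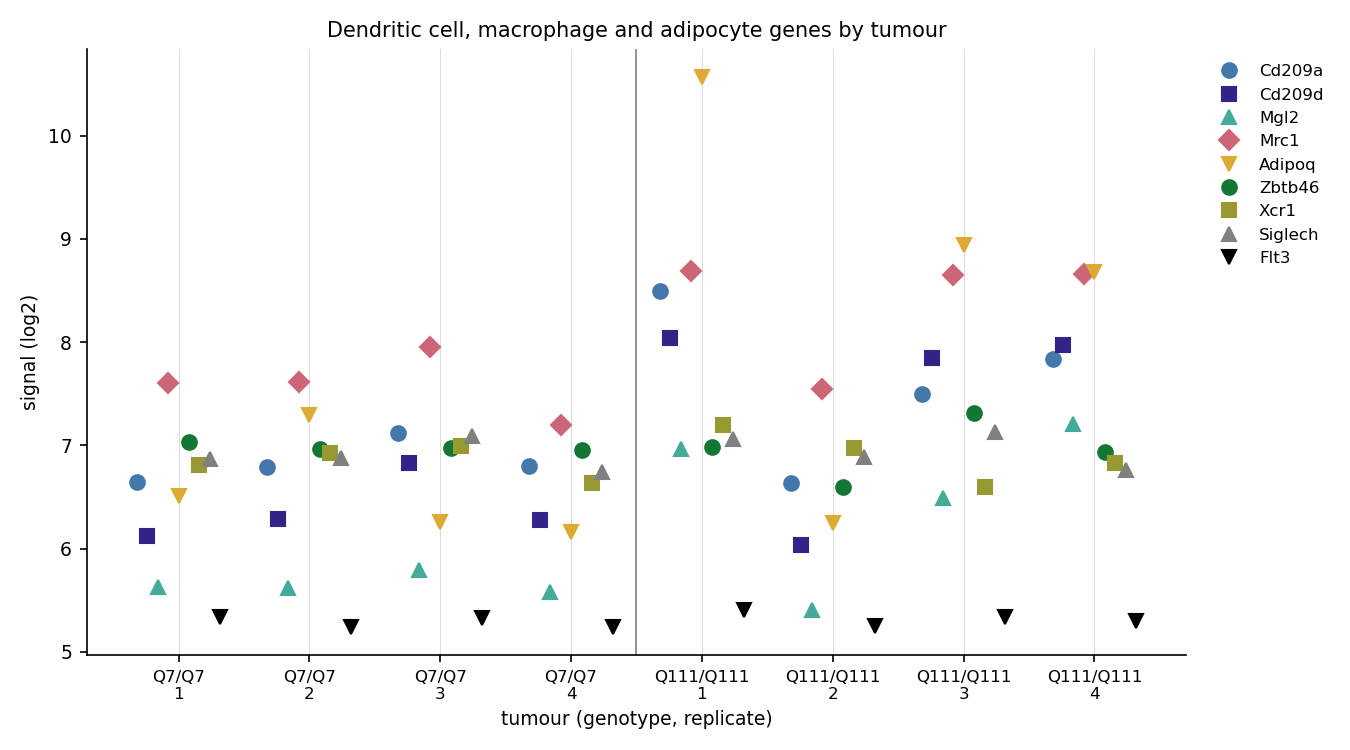
Log2 signal (y axis) of dendritic cell genes, of the macrophage gene Mrc1 and of the adipocyte gene Adipoq in each HdhQ7/Q7 and HdhQ111/Q111 tumour (x axis), 1 point per tumour and row, spread sideways within a tumour. Cd209a, Cd209d, Mgl2, Mrc1 and Adipoq are all high in HdhQ111/Q111 replicates 1, 3 and 4 and low in replicate 2 (Adipoq at 6.25), so that the genotypes overlap for these genes, as they do for Zbtb46, Xcr1, Siglech and Flt3.

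Mature and plasmacytoid dendritic cell genes showed 0 of 15 and 0 of 9 past the thresholds, with medians of -0.04 and -0.03. Ccr7, the receptor that guides mature cells to lymph nodes, was at -0.19 (95% interval -0.58 to 0.19), the costimulator gene Cd80 at 0.25 and Cd274, which encodes the checkpoint ligand PD-L1, at -0.32. Siglech, the defining lectin of plasmacytoid cells, was at 0.06 (95% interval -0.18 to 0.31). Bst2, which plasmacytoid cells carry and which interferon induces in many cells, was lower in every HdhQ111/Q111 tumour (8.65, 8.57, 8.94 and 8.47 against 9.36, 9.05, 9.31 and 8.99), a 1.43-fold difference (adjusted p = 0.427 from limma, exact permutation p = 0.0286) under the fold threshold.

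Growth factors and receptors of dendritic cells gave 0 of 9 past the thresholds, with a median of -0.14. Flt3l, the ligand of Flt3, was at -0.05 (95% interval -0.25 to 0.15), beside 0.04 for Flt3 itself. Cd40lg, the T cell signal that licenses dendritic cells, was lower without overlap (4.88 to 5.16 against 4.40 to 4.82, difference -0.35, adjusted p = 0.542 from limma, exact permutation p = 0.0286). Its row is dim, with a mean below the lower quartile of all row means (5.71).

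**Figure D4:**
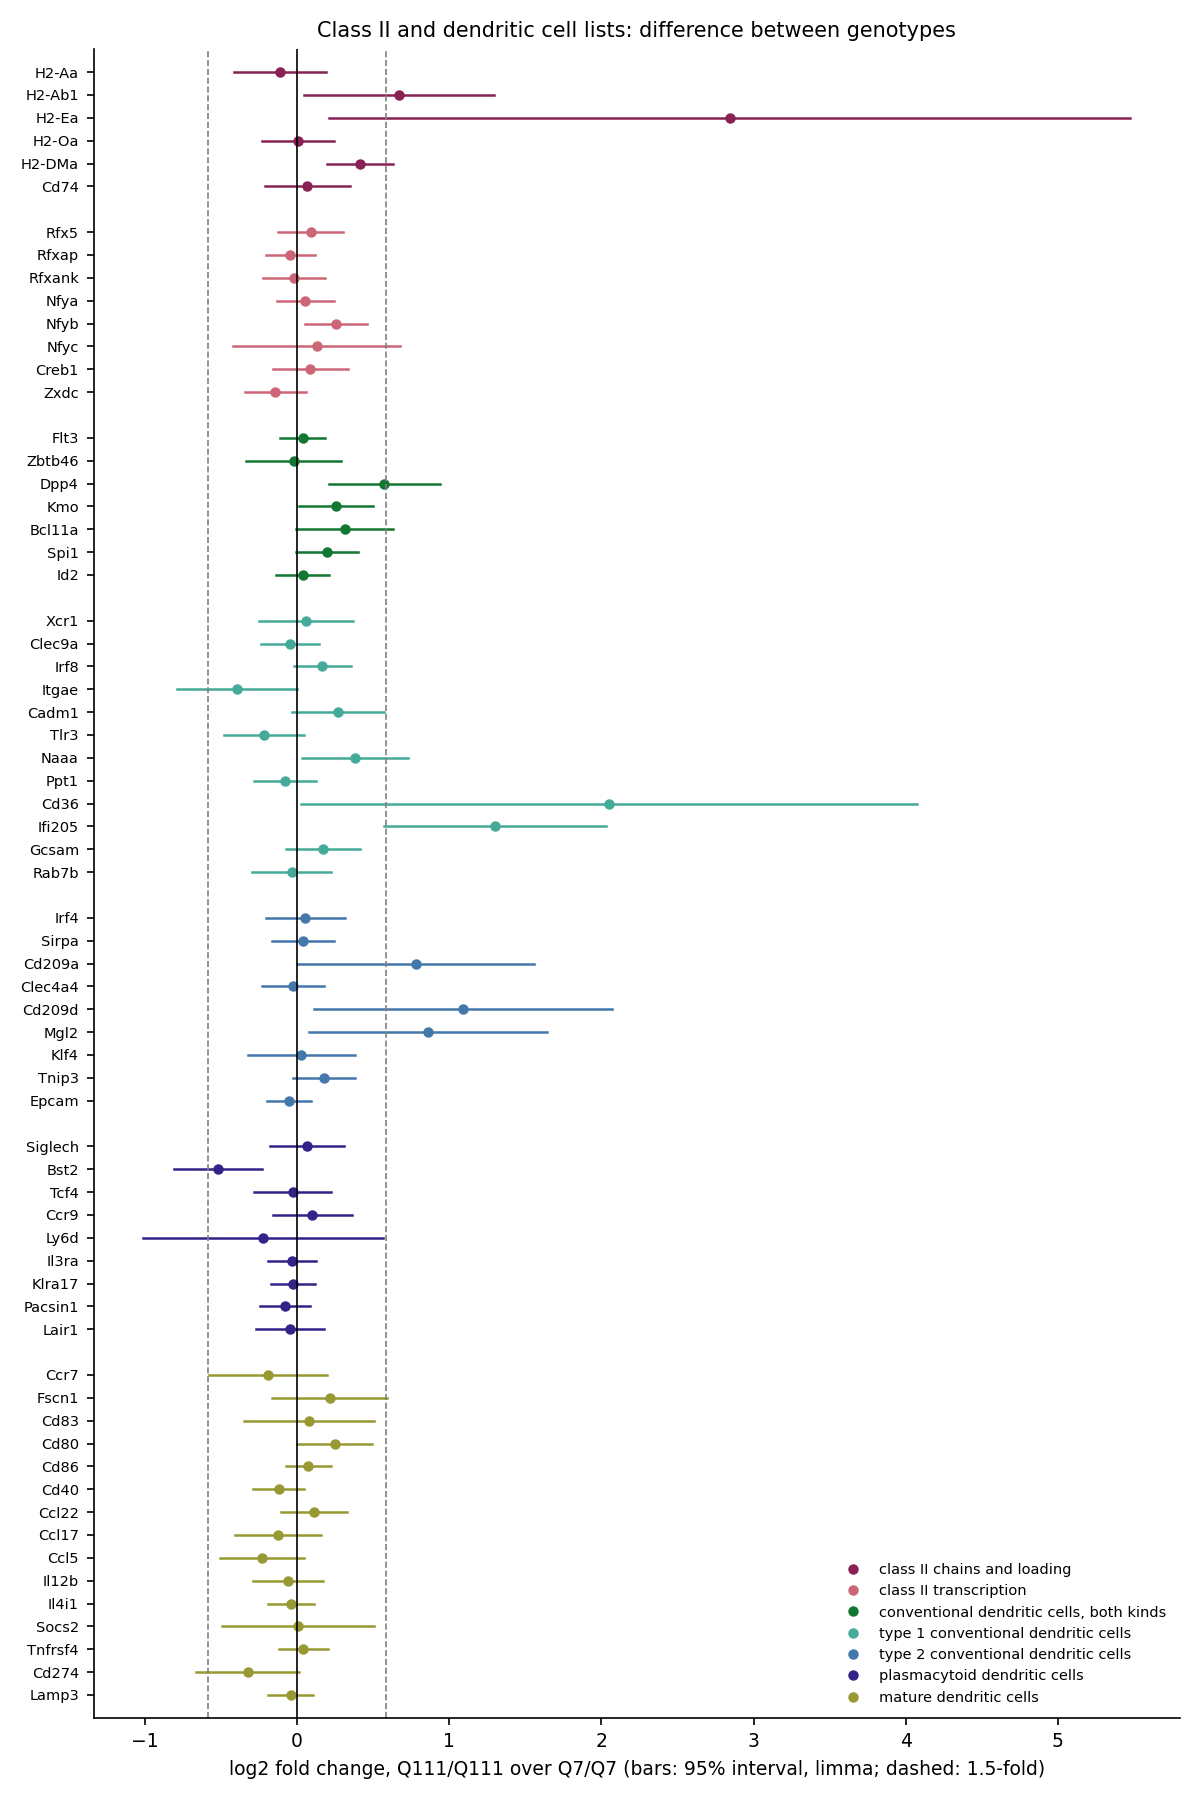
Log2 fold change of HdhQ111/Q111 over HdhQ7/Q7 tumours (x axis, with 95% limma intervals as bars and 1.5-fold as dashed lines) for each gene with a row of its own in 7 lists (colours) of class II and dendritic cell genes. H2-Ab1, H2-Ea, Ifi205, Cd36, Cd209d and Mgl2 are past the study's thresholds with limma (Ifi205 alone of these with the methods' t-test), and the intervals of H2-Aa, Cd74, Flt3, Zbtb46, Xcr1, Clec9a and Siglech cross 0.

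Markers of the other cells that could carry class II gave these values. Ptprc, the common leukocyte antigen, was at 0.05 (95% interval -0.12 to 0.22), and 8 of 8 general leukocyte genes were higher, with 0 past the thresholds and mean levels of 8.40 to 8.55 in HdhQ111/Q111 against 8.28 to 8.36 in HdhQ7/Q7 tumours. Array medians averaged 0.07 higher in HdhQ111/Q111 tumours, and with arrays centred on their medians these ranges overlapped (8.29 to 8.53 against 8.28 to 8.42). Among B cell genes 1 of 12 was past the thresholds, Ebf1, a factor that fat cells and stroma also use (0.75, 7.12 to 7.60 against 8.83, 7.28, 8.07 and 8.17), and its call was lost without HdhQ7/Q7 replicate 1, 3 or 4 or HdhQ111/Q111 replicate 1, 3 or 4 and with the methods' t-test. Of the defining B cell markers, Ms4a1 lay at 3.88 to 3.99 and Cr2 at 4.08 to 4.23, among the dimmest rows, and Cd79a was at -0.21 (95% interval -0.52 to 0.09). Lymph node genes gave 0 of 6 past the thresholds (median -0.04).

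T cells, which class II serves, gave 0 of 10 genes past the thresholds and 9 of 10 lower (median -0.11, -0.18 with arrays centred). Cd8a, a coreceptor chain of cytotoxic T cells, read 6.51, 6.31, 6.35 and 6.53 in HdhQ7/Q7 and 5.76, 6.06, 5.91 and 6.20 in HdhQ111/Q111 tumours, with no overlap and a difference of -0.44 (adjusted p = 0.426 from limma, exact permutation p = 0.0286). Cd4, the coreceptor of the T cells that read class II, was the 1 gene of the list that was higher (0.11, 95% interval -0.21 to 0.43). Cd3e, part of the T cell receptor complex, was at -0.21 with no overlap (exact permutation p = 0.0286). Epcam, a marker of the tumour epithelium, was at -0.06 (95% interval -0.20 to 0.09), and 0 of 9 epithelial genes were past the thresholds. Of 8 myoepithelial and basal genes, all 8 were higher (median 0.55) and 2 past the thresholds, Acta2, a smooth muscle actin, and Trp63, a basal transcription factor, of which Trp63 alone was so with the methods' t-test. Acta2 lost its call without HdhQ7/Q7 replicate 1, 2 or 4 or HdhQ111/Q111 replicate 2 or 3, and Trp63 without HdhQ7/Q7 replicate 1 or HdhQ111/Q111 replicate 3 or 4. The mean level of these 8 genes was 8.15, 9.07, 8.60 and 8.78 in HdhQ111/Q111 replicates 1 to 4 and 8.01 to 8.24 in HdhQ7/Q7 tumours, with replicate 2 the highest, and its part in the class II values was not tested.

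Variation among tumours of one genotype was compared after each genotype's mean had been taken off, over the 8 tumours, as a description. H2-Aa followed Cd74 (Pearson r 0.85), as did H2-DMa (r 0.84) and, less closely, H2-Ab1 (r 0.70), while H2-Ab1 and H2-DMa were less alike (r 0.34). Flt3 was not close to any of the 4 (r between -0.32 and 0.38). These points share their arrays. The genes most like the mean of H2-Aa, H2-Ab1, H2-DMa and Cd74 were Cpq (r 0.98), Ly6f, Pgr, Zfp677, Ppp1r9a, Pcp4, Ogfod3 and Olfr1151 (r 0.96), and those most like Flt3 were Ifi27l2a (r 0.97), Olfr706, Tspan1, Lexm and Zic1 (r 0.96). They are the highest of the 14860 genes, with the 5 members left out, over 8 points. Those of Flt3 match a row whose SD over the tumours was 0.06.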

How the data were processed

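RNA of 4 HdhQ7/Q7 and 4 HdhQ111/Q111 tumours was measured with 1 array each. The authors deposited a log2 signal for each of 23332 rows on each array. The labels name the mm9 core meta-probeset file, and the sources used here do not give the normalization behind these values. The methods describe, for the study's own gene calls, correction against antigenomic probes, quantile normalization and a detection filter. Array medians differed by 0.160, which is less than the 0.2 above which they would have been normalized again, and they were kept as deposited. Gene symbols came from the platform annotation: 14996 rows have 1 symbol, 1019 several and 7317 none. A row with several symbols was given to no gene. The number of arrays limits the precision.

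The genotypes were set against each other in limma 3.58.1 (R 4.3.3) with lmFit and eBayes (two-sided, no trend, not robust) over all rows and all 8 tumours, with Benjamini-Hochberg adjustment, and single rows with a two-sided exact permutation test (SciPy 1.17.1). The fit was tested on simulated data. Counts past the thresholds and medians of 19 lists beside the 8 genes (203 symbols, 168 with a row of their own) stand beside those of all rows, and no test of a list was made. The share of all rows higher or lower was not counted, so counts of direction have no such background. The members and lists were chosen with earlier results of these data known. Named genes were the 8, defining cell markers, up to 4 genes with the smallest p per list and those most alike over tumours. A few rows (the H2-T rows, D17H6S56E-5, Rsad2, Irf8, Irf4, Sirpa, Klf4, Clec4a4, Tlr3, Cd4, Cd163, Jak2 and the Batf3 row) were added after their values were seen. Alternatives tried were array weights, a robust fit with variance trend, the methods' t-test, quantile normalization, centred arrays, rows without the dimmest 40%, single-symbol rows once per gene, a replicate block, a fold threshold of 2, and each tumour left out. Leaving out HdhQ7/Q7 replicates 1 and 3 together was added after the values were seen. Figures were made in matplotlib 3.10.9 under Python 3.11.15.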

Additional observations from a re-analysis of the deposited data

Results flagged for a closer look

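In 7 of 144 groups of 4 tumours, 1 tumour lay far from the other 3 (a gap past the 95% critical value of Dixon for groups of 4). Chance flags about 1 in 20 groups, which comes to 7.2 here. All 7 were HdhQ111/Q111 groups. For Cd209d, replicate 2 was at 6.03 and the others between 7.84 and 8.04. For Mrc1, replicate 2 was at 7.55 and the others between 8.65 and 8.69, and for Tnip3 it was at 4.72 against 4.96 to 4.98. Replicate 4 was low for Ccr7, at 5.998 against 6.42 to 6.47, and high in the row of H2-T10 and H2-T22, at 10.43 against 7.97 to 8.36. Replicate 1 was high for Ccl5, at 6.77 against 6.50 to 6.52, and low for Cd8b1, at 6.32 against 6.58 to 6.63. The same tumour, replicate 2, stood apart in Cd209d, Mrc1 and Tnip3, and why it did was not tested.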

How the results depend on the processing

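The number of the 5 genes past the study's thresholds was 1 as reported, and 0 with the methods' t-test, with centred arrays, with the replicate block, with a fold threshold of 2 and without HdhQ7/Q7 replicates 1 and 3 together (0 to 1 with each tumour left out). Rows past the thresholds numbered 317 as reported, 184 without the dimmest 40% of rows and 181 with single-symbol rows once per gene, where fewer rows are tested, and 71 with a fold threshold of 2. The median difference of the 5 genes was 0.07, and 0.24 without the dimmest 40%, where Flt3 drops out. Cd74 turned to -0.0003 and Flt3 to -0.0306 with centred arrays, and Cd74 ran from -0.0372 to 0.140 with each tumour left out. H2-DMa kept its direction and an unadjusted limma p of at most 0.05 in all alternatives run, and H2-Aa its direction. Replicate numbers do not pair the tumours (correlation of same-numbered deviations between -0.19 and 0.03). With the replicate block, H2-Ab1 (0.67) lost its call and 332 rows were past the thresholds. No member has a second row of its own symbol, so the alternative of another row gave no value. Arrays of 4 tumours per genotype and dim rows such as Flt3 and Clec9a limit what can be seen.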
